A study of Mus musculus with 4 samples.

Results

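The genes described here are deubiquitinases, ubiquitin-activating (E1) and ubiquitin-conjugating (E2) enzymes and proteasome subunits in granulocyte-monocyte progenitors, the precursors of neutrophils and monocytes in bone marrow. They were chosen by mouse gene symbol: Usp or Uba followed by a digit, or a symbol starting with Otud, Uchl, Ube2, Psma, Psmb, Psmc, Psmd or Psme. There were 59 such genes among 5059 annotated genes with a listed transcript, and 84 of the 8219 listed transcripts belonged to them. MST1-deficient mice were compared with wild-type mice in 2 RNA-seq libraries per genotype. For each library, progenitors of 10 mice were pooled, held in medium with serum and given no drug. The labels give no age, sex, strain, allele or method of gene disruption.

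The deposited lists hold transcripts that the authors marked as outside their reference annotation, called unannotated below. Annotated transcripts were not analysed here, so each value covers only the unannotated part of a gene's RNA. Values are estimated counts and FPKM, which scales counts to transcript length and library size. A transcript missing from a library's list was set to 0 there. Comparing levels between genes is meaningful on the FPKM scale alone.

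Ubiquitin is a small protein that an E1 enzyme activates, an E2 enzyme carries and a ligase attaches to a target protein. Chains of ubiquitin can send the target to the proteasome, a barrel-shaped protease (the 20S core) with an ATP-driven cap (the 19S particle). Deubiquitinases remove ubiquitin again or trim the chains. In blood progenitors this system sets how long cell cycle regulators, survival proteins and signalling proteins persist.

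Usp9x (chrX:13070982-13173328, GRCm38) had transcripts listed in wild type alone and is described first. Among its listed transcripts were 2 pairs that differed in length by 15 bases, 12013 with 12028 bases and 12494 with 12509 bases. The GENCODE M21 annotation of the same build holds 15 pairs of Usp9x exons that share 1 end, and in 1 of them the exons differ by 15 bases. That pair is chrX:13116609-13116757 and chrX:13116624-13116757 on the plus strand. Each exon form is held by 2 annotated transcripts and is annotated as coding sequence in at least 1 of them. The messenger RNA around the start of the exon is shown for both forms because the difference in length matches. Capitals mark the 15 bases, chrX:13116609-13116623, which the shorter form lacks.
Longer exon form: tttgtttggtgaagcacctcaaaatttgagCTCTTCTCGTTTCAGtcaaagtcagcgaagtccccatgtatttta
Shorter exon form: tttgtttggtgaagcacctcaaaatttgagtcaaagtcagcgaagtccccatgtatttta
The first 30 bases come from the preceding exon, which ends at position 13114644. The deposited files give lengths and no sequence, so whether the listed transcripts differ at this exon was not tested.

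The libraries were close in depth. Listed estimated counts totalled 928977 and 1002807 in MST1-deficient replicates 1 and 2, and 1079382 and 947305 in wild-type replicates 1 and 2. Nothing in the labels says whether the pools were prepared separately beyond the mice they came from. The p-values rest on the spread between 2 pools per genotype, partly shared across features. They may miss spread between separate preparations. MST1 was taken to be the kinase that Stk4 encodes in mice. No transcript of Stk4 was listed, so the genotypes rest on the labels. Of 18 progenitor markers, 5 were listed (Kit, Gfi1, Csf3r, Cd48 and Fcgr2b). They summed to 129 and 128 FPKM in MST1-deficient and to 129 and 104 FPKM in wild-type libraries. Mpo, Elane, Prtn3, Ctsg, Cebpa and Cd34 were among the 13 with no listed transcript, which says nothing of their annotated transcripts. The Y-linked gene Ddx3y had 10.2 and 5.60 FPKM in MST1-deficient libraries, against 1.91 and 0 FPKM in wild-type libraries, and Kdm5d, Uty and Eif2s3y showed the same order. These levels moved with genotype while no label gives the sex of the mice, and their part in any result, that of the X-linked genes Usp9x, Otud5 and Usp11 included, was not tested. Listed markers of eosinophils, basophils and mast cells, 6 of 11, summed to 116 and 129 FPKM in MST1-deficient libraries and 156 and 197 FPKM in wild-type libraries, with Epx, Prg2, Mcpt8, Cpa3 and Fcer1a not listed. Their part in the results was not tested. Genotypes overlapped in the summed FPKM of listed markers of each other cell type looked at. These were erythroid and megakaryocytic, B lineage, T and NK, mature neutrophil, monocyte and macrophage, and stromal and endothelial cells.

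Usp9x encodes a very large deubiquitinase known for stabilising survival and polarity proteins. The shorter transcript of each pair was not listed in either MST1-deficient library. The 12013-base transcript had 0 estimated counts in both MST1-deficient libraries, against 293 and 205 in wild-type libraries. The 12494-base transcript likewise had 0 in both MST1-deficient libraries, against 221 and 109 in wild-type libraries. Against a floor of 3 counts per library, these were at least 79.1-fold and at least 51.6-fold lower in MST1-deficient cells. The longer transcript of each pair was listed in every library. The 12028-base transcript had 286 and 464 counts in MST1-deficient libraries and 255 and 226 in wild-type libraries. The 12509-base transcript had 260 and 244 counts in MST1-deficient libraries and 193 and 121 in wild-type libraries. For both longer transcripts the genotypes did not overlap, with the MST1-deficient libraries above. Fewer cells with a transcript and less of it per cell cannot be told apart in pooled RNA.

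Within the 4 paired transcripts, the shorter forms took 0% of the counts in both MST1-deficient libraries, where a count of 0 allows up to 0.550% and 0.424%. In wild-type replicates 1 and 2 they took 53.4% (95% Wilson interval 50.2 to 56.5) and 47.5% (43.7 to 51.2). The intervals and floors cover counting error only, and the labels mention no molecular identifiers. The transcripts of a pair share nearly all their length, so how reads were divided between them by the authors' estimator is uncertain. These shares were computed after the values were seen and have no test.

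None of the Usp9x transcripts passed the edgeR quasi-likelihood test, in which 0% of 4661 tested transcripts did. The 12013-base transcript had an adjusted p of 0.376 and the 12494-base transcript 0.395. With limma on log2(FPKM + 0.5), 5 transcripts passed (0.107%) and none of Usp9x. DESeq2, which called 100 transcripts (2.15%), called both, with adjusted p of 6.67e-08 and 7.25e-06. Both transcripts reached the filter of at least 1 FPKM in at least 2 libraries through wild type alone, so they had to differ, and these p-values give no independent support. Over the other alternatives, adjusted p was lowest in limma with a pseudocount of 0.1, at 0.057 for the 12013-base and 0.081 for the 12494-base transcript. It was highest in edgeR with replicate number added as a block, at 0.946. Neither longer transcript passed in any fit; their fold changes on the log2 scale were 0.70 ± 0.34 and 0.76 ± 0.32 (± SE).

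Of the other Usp9x transcripts, that of 11977 bases had 424 and 0 counts in MST1-deficient libraries, against 93.8 and 159.8 in wild-type libraries, so the genotypes overlapped. The 5386-base transcript did not pass the FPKM filter, at or below 4.78 counts in every library. The sum of all 6 differed little, with 970 and 709 counts in MST1-deficient libraries and 1060 and 823 in wild-type libraries. The log2 fold change was -0.10 (SE 0.23), and it changed sign, to 0.11, without MST1-deficient replicate 2. All but the 5386-base transcript exceeded the longest annotated Usp9x transcript of 11887 bases.

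**Figure D1:**
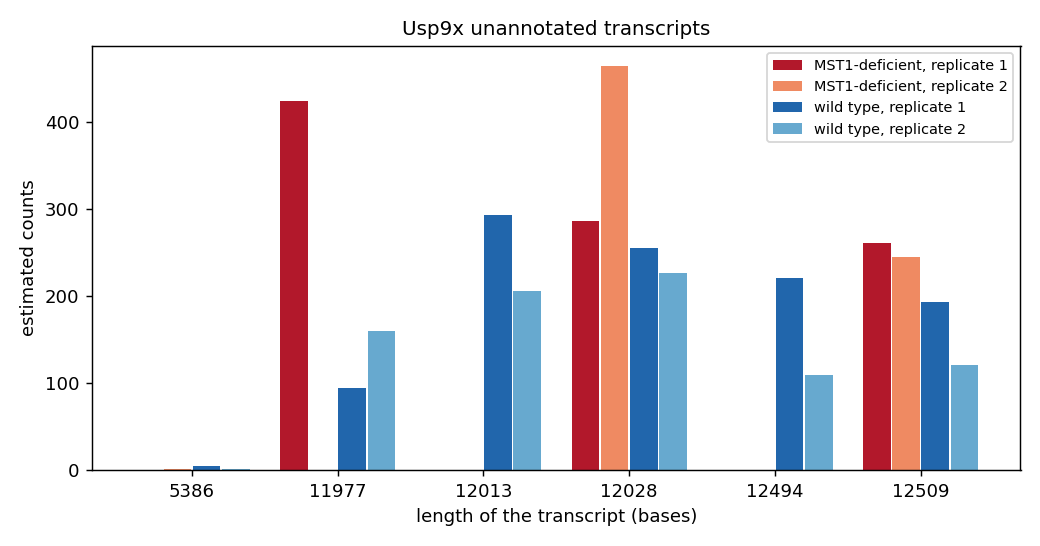
Estimated counts (vertical axis) of the 6 listed Usp9x transcripts by length in bases (horizontal axis), 1 bar per library. The bars of the 12013-base and 12494-base transcripts are at 0 in both MST1-deficient libraries and between 109 and 293 in wild-type libraries, while the 12028-base and 12509-base transcripts are present in all.

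Usp36 (chr11:118259651-118290260), which encodes a nucleolar deubiquitinase, showed a shift between forms that differ by 53 bases. The 5666-base form had 188 and 198 counts in MST1-deficient libraries, against 118 and 95.2 in wild-type libraries. The 5613-base form had 58.2 and 63.3 counts in MST1-deficient libraries, against 125 and 96.9 in wild-type libraries. The genotypes did not overlap in either form, and the forms lay in opposite directions. The 5666-base form made up 65.7 ± 3.30% of the gene's listed FPKM in MST1-deficient libraries and 44.3 ± 0.555% in wild-type libraries (SD, n = 2 each). Log2 fold changes were 0.92 (SE 0.32) and -0.81 (SE 0.40), with adjusted p of 0.937 and 0.999 in edgeR. A 6472-base form did not pass the filter.

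The balance among transcripts was tested with diffSplice of limma, which pools the spread over a gene's transcripts and treats them as independent. It called 11 of 909 genes (1.21%) and 0 of the 8 testable genes described here. An unadjusted p under 0.05 was found for 88 genes (9.68%), Usp36 among them. Adjusted p was 0.457 for Usp36 and 0.564 for Usp9x.

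**Figure D2:**
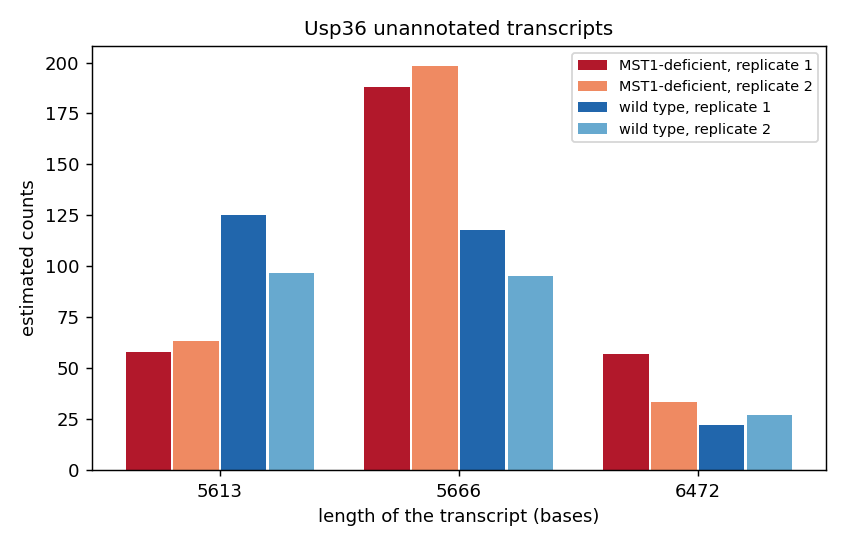
Estimated counts (vertical axis) of the listed transcripts of Usp36 by length in bases (horizontal axis), 1 bar per library. The 5666-base form is above wild type in both MST1-deficient libraries, and the 5613-base form is below.

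Across all 84 transcripts, 46 passed the filter of at least 1 FPKM in at least 2 libraries. Of these, 4 had an unadjusted p under 0.05 in edgeR, against 5.26% of all tested transcripts. The shorter pair of Usp9x and the 5666-base form of Usp36 were among them. The genotypes did not overlap in 7 transcripts that were higher in MST1-deficient cells (13.7% of all tested transcripts) and 8 that were lower (19.9%). In either direction that was 15 of 46, near the 33.6% of all tested transcripts. Some transcripts pass the filter only through the genotype where they are high, and those had to differ. Listing in both wild-type and neither MST1-deficient library was found for 4 of the 84, against 1.97% of all listed transcripts. Beside the pair of Usp9x these were transcripts of Usp45 and Psmb3 with at most 2.03 counts in any library. None of the 84 showed the opposite pattern, against 2.23% of all.

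Summed per gene, 0 of the 37 tested genes passed the edgeR test, as did 0% of the 3221 genes tested. DESeq2 called 46 genes (1.43%) and limma on log2(FPKM + 0.5) called 5 (0.155%), and none of these calls was among the 37. At an unadjusted p under 0.05 edgeR gave 182 genes (5.65%) and 0 of the 37, with a lowest adjusted p of 0.941. Log2 fold changes were positive for 22 and negative for 15 of the 37, and their median of 0.04 stood beside 0.01 for all tested genes. Fold changes within 0.5 of 0 on the log2 scale were found for 28 of the 37 and for 67% of all tested genes. The 37 were 62.7% of the 59, close to the 63.7% of all annotated genes that could be tested. The genotypes did not overlap in 4 genes that were higher (14.1% of all tested) and 4 that were lower (18.8%), which together was 8 of 37, against 32.8% of all tested genes.

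**Figure D3:**
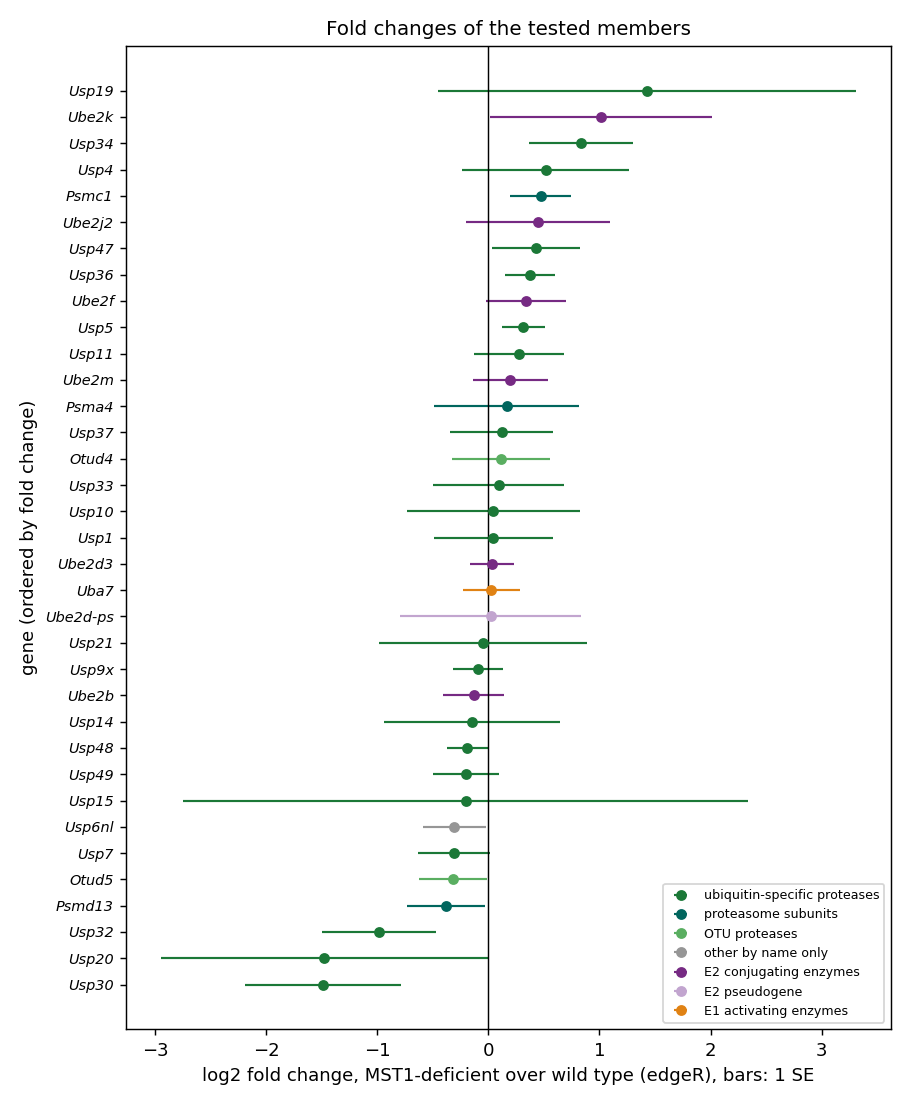
Log2 fold change of MST1-deficient over wild type from edgeR (horizontal axis) for 35 of the 37 tested genes (vertical axis), with bars of 1 SE and colours by role. Usp30 has the lowest value at -1.49 and Usp19 the highest at 1.43, and most other points lie within 0.5 of 0.

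The ubiquitin-specific proteases were the largest group, with 28 genes listed, 21 tested and 0 called. Their log2 fold changes were positive for 11 and negative for 10, with a median of 0.04. Usp5 (chr6:124815019-124829484), which takes apart free ubiquitin chains, was the most abundant of them, with 45.7 and 44.5 FPKM in MST1-deficient libraries and 38.1 and 37.8 FPKM in wild-type libraries. Replicates lay close together and the genotypes did not overlap. A log2 fold change of 0.32 (SE 0.19) did not pass (adjusted p = 0.972 in edgeR). Usp36 as a sum had 6.97 ± 1.12 FPKM in MST1-deficient and 5.63 ± 0.488 FPKM in wild-type libraries (SD, n = 2 each), with a log2 fold change of 0.37 (SE 0.22).

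Proteases with the lower values in MST1-deficient libraries were Usp30, Usp32, Usp20 and Usp7. Usp30 (chr5:114100299-114123510), a deubiquitinase of the outer mitochondrial membrane that opposes the removal of damaged mitochondria, had 0.67 and 1.66 FPKM in MST1-deficient libraries, against 3.91 and 3.29 FPKM in wild-type libraries. The log2 fold change was -1.49 (SE 0.70, adjusted p = 0.941 in edgeR), and leaving out MST1-deficient replicate 1 gave -0.88, leaving out replicate 2 of that genotype -2.55. Usp32, a membrane-bound deubiquitinase, had 0.84 and 1.19 FPKM in MST1-deficient libraries and 1.56 and 2.58 FPKM in wild-type libraries (log2 fold change -0.98, SE 0.51). With 1 library left out, Usp32 ranged from -1.40 without MST1-deficient replicate 2 to -0.49 without wild-type replicate 2, with -0.65 without MST1-deficient replicate 1. Usp7, which acts on the ligase of p53, had 2.27 and 1.94 FPKM in MST1-deficient libraries and 2.70 and 2.71 FPKM in wild-type libraries (log2 fold change -0.31, SE 0.32).

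Usp20 rested on a single library. It had 4.0 and 0.040 FPKM in MST1-deficient libraries, against 4.74 and 5.94 FPKM in wild-type libraries. The log2 fold change was -1.47 (SE 1.47), and leaving out MST1-deficient replicate 1 gave -6.23, leaving out replicate 2 of that genotype -0.50. Usp37, which acts on cyclin A, split between forms: its 7196-base transcript had 30.6 and 73.8 counts in MST1-deficient and 129 and 67.3 counts in wild-type libraries. On the FPKM scale that transcript had 0.63 and 1.23 in MST1-deficient and 2.30 and 1.29 in wild-type libraries. On counts the log2 fold change was -0.81 (SE 0.66), and it ranged from -1.55 without MST1-deficient replicate 2 to -0.32 without replicate 1 of that genotype, with -0.41 without wild-type replicate 1. A second form, of 7130 bases, was listed in MST1-deficient replicate 1 alone, with 95.9 counts.

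Several other abundant proteases overlapped between the genotypes. Usp1, a protease of the DNA crosslink repair and replication machinery, had 15.2 and 28.0 FPKM in MST1-deficient libraries and 16.2 and 28.5 FPKM in wild-type libraries, so the ranges of the genotypes nearly coincided. Usp48, which acts on histone H2A, had 15.7 and 13.2 FPKM in MST1-deficient and 18.98 and 15.3 FPKM in wild-type libraries. Usp19, an endoplasmic reticulum protein, spread widely, with 0.030 and 10.2 FPKM in MST1-deficient and 2.76 and 1.67 FPKM in wild-type libraries. Of the OTU proteases, Otud5 had 9.49 and 6.03 FPKM in MST1-deficient and 8.57 and 11.1 FPKM in wild-type libraries, and Otud4 averaged 1.99 FPKM over all libraries. Usp11, X-linked like Otud5, had 2.88 and 2.05 FPKM in MST1-deficient and 2.67 and 1.55 FPKM in wild-type libraries. Usp47, which acts in base excision repair, had 8.28 and 4.66 FPKM in MST1-deficient and 3.74 and 5.91 FPKM in wild-type libraries. Usp14, which sits on the proteasome and trims chains there, had 4.04 and 0.87 FPKM in MST1-deficient and 2.64 and 2.78 FPKM in wild-type libraries. Genotypes overlapped in all of these, and also in Usp4, Usp10, Usp15, Usp21, Usp33, Usp34 and Usp49, which averaged 0.59 to 3.07 FPKM. No transcript of a Uchl gene was listed. Usp6nl, a regulator of Rab GTPases that shares only its name with this group, had 3.01 and 2.33 FPKM in MST1-deficient and 3.83 and 3.01 FPKM in wild-type libraries.

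Another 7 proteases did not pass the FPKM filter. Usp3, which acts on histones, had 57.7 and 121 counts in MST1-deficient libraries and 0 and 54.4 counts in wild-type libraries. Usp24, a relative of Usp9x, had 5.39 and 0 counts in MST1-deficient libraries and 25.1 and 23.2 counts in wild-type libraries. In both the genotypes did not overlap. The same held for Usp45, with 0 counts in both MST1-deficient libraries and only 1.13 and 1.10 in wild-type libraries. The share without overlap over all untested genes was not computed. Usp13, Usp31, Usp39 and Usp44 overlapped, at means of 0.043 to 0.14 FPKM.

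**Figure D4:**
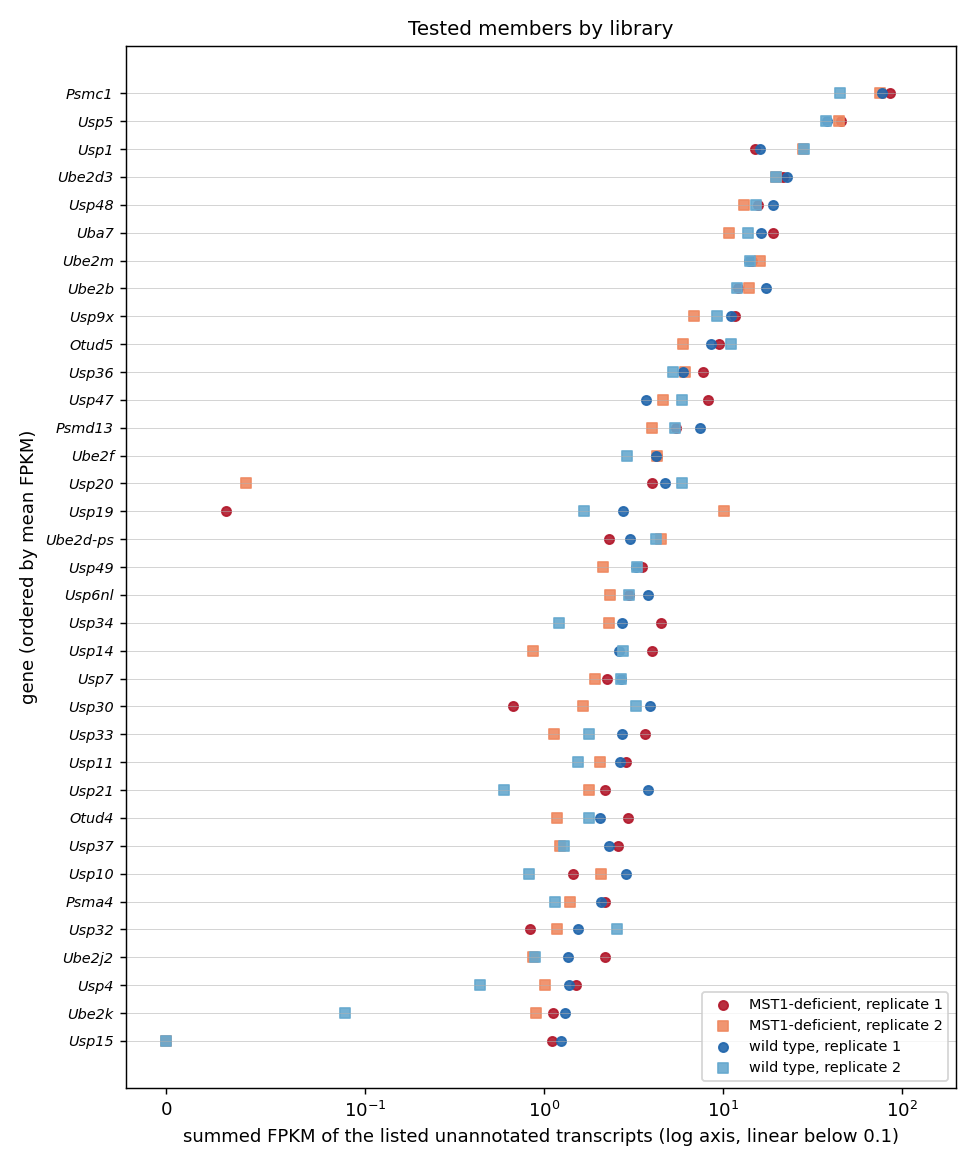
Summed FPKM of the listed unannotated transcripts (horizontal axis, log scale, linear below 0.1) of 35 of the 37 tested genes (vertical axis) in each library. Gene means run from 0.59 to 71.1 FPKM, with Psmc1 at the top, and the libraries of both genotypes interleave for most genes.

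Of the activating enzymes, Uba7 and Uba2 were listed. Uba7, the E1 enzyme of the interferon-induced modifier ISG15, had 19.1 and 10.9 FPKM in MST1-deficient libraries and 16.3 and 13.9 FPKM in wild-type libraries. The genotypes overlapped, with a log2 fold change of 0.03 (SE 0.26). Uba2, a subunit of the E1 enzyme of SUMO, was at 0.83 and 0.89 FPKM in MST1-deficient and 2.33 and 0.86 FPKM in wild-type libraries and was not tested.

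Conjugating enzymes numbered 13 listed, 7 tested and 0 called, with a median log2 fold change of 0.20. Ube2d3, an E2 enzyme that works with many ligases, was the most abundant at 21.7 and 19.95 FPKM in MST1-deficient libraries and 22.8 and 19.8 FPKM in wild-type libraries. Ube2b, which carries ubiquitin to histone H2B and to PCNA, had 12.2 and 14.1 FPKM in MST1-deficient and 17.5 and 12.1 FPKM in wild-type libraries. In both genes the genotypes overlapped.

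Ube2m and Ube2f carry NEDD8, the relative of ubiquitin that switches on cullin ligases. They were the 2 of 7 tested conjugating enzymes without overlap in FPKM, against 32.8% of all tested genes. In estimated counts the genotypes overlapped for both. Ube2m had 14.7 and 16.2 FPKM in MST1-deficient and 14.1 and 14.2 FPKM in wild-type libraries. Its log2 fold change of 0.20 (SE 0.34) changed sign, to -0.053, without MST1-deficient replicate 2. Ube2f had 4.27 and 4.30 FPKM in MST1-deficient and 4.23 and 2.90 FPKM in wild-type libraries (log2 fold change 0.34, SE 0.36). Neither passed (adjusted p = 0.992 for both in edgeR). Ube2j2, an enzyme of the endoplasmic reticulum, and Ube2k averaged 1.33 and 0.86 FPKM, and Ube2l3, Ube2o, Ube2q2, Ube2r2, Ube2v2 and Ube2w did not pass the filter, at means of 0.023 to 0.76 FPKM. The pseudogene Ube2d-ps, whose reads may be shared with its parent genes, had 2.31 and 4.51 FPKM in MST1-deficient and 3.05 and 4.26 FPKM in wild-type libraries.

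Of the proteasome, 9 genes with a subunit symbol and the activator gene Psme4 were listed, with 3 of the 9 tested and 0 called. Psmc1, an ATPase of the 19S base, stood out by level with 86.1 and 75.4 FPKM in MST1-deficient libraries and 77.6 and 45.2 FPKM in wild-type libraries. The log2 fold change was 0.47 (SE 0.27, adjusted p = 0.947 in edgeR), and the genotypes overlapped. Psmd13, a structural subunit of the 19S lid, had 5.51 and 4.02 FPKM in MST1-deficient and 7.47 and 5.40 FPKM in wild-type libraries. Psma4, of the outer ring of the core, had 2.19 and 1.41 FPKM in MST1-deficient and 2.10 and 1.15 FPKM in wild-type libraries.

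The remaining proteasome genes were low. The transcript of Psmb10, a catalytic subunit of the immunoproteasome, was listed with 28.9 counts in MST1-deficient replicate 2 and 3.17 in wild-type replicate 1 and was absent from the other libraries. Psme4, a proteasome activator, had at most 2.63 counts in any library. Psma2, Psmb3, Psmc4, Psmd2 and Psmd9 each had at most 20.3 counts in any library. Psme3ip1, the product of which binds an activator and is not a subunit, was listed in wild-type replicate 2 alone with 7.37 counts. In all, 24 of the 59 genes averaged under 1 FPKM and 9 averaged at least 10 FPKM.

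Of the 83 transcripts that could be matched, 41 exceeded the longest GENCODE transcript of their gene, or 49.4%, against 45.2% of all matched transcripts.

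Genes of neighbouring pathways gave 0 edgeR calls as well. Among 31 deubiquitinases of other families, 10 were listed, 5 tested and 0 called, with a median log2 fold change of 0.18. The most abundant was Brcc3, a metalloprotease for lysine 63-linked chains, at 12.6 and 10.1 FPKM in MST1-deficient and 6.02 and 9.77 FPKM in wild-type libraries.

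Among 30 genes of proteasome assembly, shuttling and regulation, 5 were listed, 2 tested and 0 called, with a median of 0.25. Ecpas, a proteasome-binding scaffold, had 4.19 and 1.97 FPKM in MST1-deficient and 1.87 and 2.19 FPKM in wild-type libraries. Among 35 genes of SUMO, NEDD8, UFM1, ISG15 and autophagy conjugation, 11 were listed, 6 tested and 0 called, with a median of -0.030. Senp1, a SUMO protease, had 10.7 and 9.74 FPKM in MST1-deficient libraries and 5.68 and 5.73 FPKM in wild-type libraries. Its log2 fold change of 0.90 (SE 0.21) did not pass (adjusted p = 0.564 in edgeR). Of the 6 tested genes of this list, Senp1 was the 1 that was higher without overlap, and 1 was lower without overlap. In either direction 32.8% of all tested genes did not overlap. Other abundant genes of this list had negative fold changes.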

How the data were processed

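For each unannotated transcript, the authors deposited estimated counts that were not normalised and need not be whole, per the file headers. The FPKM deposited beside them divides each count by transcript length and library total, per the file headers. Per the submitters' processing notes the build was mm10, with aligner, assembler and estimator not given in the sources used here. Gene numbers were matched to symbols through a RefSeq table of GRCm38.p6 (5051 of 5059 matched, and the other 8 could not be sorted by symbol). Library totals implied by FPKM, count and length were 6913590 and 8518425 for MST1-deficient and 7982100 and 7406758 for wild-type libraries.

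Genotypes were tested 2-sided in edgeR 4.0.16 under R 4.3.3, by quasi-likelihood with TMM scaling. Each SE of an edgeR fold change was back-calculated, as its absolute log2 value divided by the square root of the F statistic. Estimated counts were rounded first, for single transcripts and for their sums per gene, and a feature needed at least 1 FPKM in at least 2 libraries. Benjamini-Hochberg adjustment ran over all features tested, with a threshold of 0.05. For the balance among transcripts, diffSplice of limma 3.58.1 was run on log2(FPKM + 0.5). Alternatives were DESeq2 1.42.0, limma with pseudocounts of 0.5, 0.1 and 1, median centring, quantile normalisation, RLE factors, implied totals, no filter, transcripts above 0 in all libraries (balance), a block for replicate number, and leaving out 1 library at a time. The tests were tried on simulated data with known changes, and that trial does not show that a lack of calls means no change. An exact permutation test of 2 against 2 cannot go below 0.33, so single values were not tested. A fold against a group at 0 used a floor of 3 counts per library.

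Members, lists and the naming rule were chosen with earlier results of these data known. The rule named Usp9x, any call by edgeR, DESeq2 or limma, up to 8 gene sums and 6 transcripts per direction without overlap by smallest p, the 10 most abundant genes and the most abundant of each role. Other members given by name were chosen after their values were seen. Some members and pathway genes are counted in the totals but not reported here. Sequences are from GENCODE M21 (GRCm38).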

Additional observations from a re-analysis of the deposited data

How the results depend on the processing

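Among the genes described here, the number called was 0 under every alternative run, and so was the number with a changed balance of transcripts. Over all 3221 tested genes, DESeq2 called 46 and limma up to 9, and up to 25 of 909 genes had a changed balance. Of the 84 transcripts described here, 0 were called in edgeR and limma under every alternative run. DESeq2 called 3 of the 46 tested, against 2.15% of all tested transcripts. The 12013-base and 12494-base forms of Usp9x were among them, and both reached the filter through wild type alone. Why DESeq2 differed was not tested. With each library left out in turn, all 3 counts were 0. For the genes described here, adding replicate number as a block gave 0 transcripts (lowest adjusted p 0.946) and 0 gene sums (0.751) called in edgeR. For balance it gave 0 genes called in diffSplice (lowest adjusted p 0.184). The labels do not say that the numbers pair the libraries; the difference between replicates 1 and 2 correlated between the genotypes with r = 0.127 across 3221 genes, which are not independent. Of the fold changes given, 289 comparisons with an alternative kept direction and side of the threshold, 3 (the DESeq2 calls) moved past it, and 2 changed sign, both without MST1-deficient replicate 2: summed Usp9x at 0.11 and summed Ube2m at -0.053. With each library left out in turn, summed Usp9x ranged from -0.33 to 0.11 and summed Ube2m from -0.053 to 0.41. On the log2(FPKM + pseudocount) scale the difference of the 12013-base Usp9x form lay between -4.80 and -1.89, so its size depends on the pseudocount. The FPKM filter left 22 of the 59 genes out of the reported tests; without it all 59 were fitted and 0 were called.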

Other observations

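Some of these genes, picked after their values were seen, differed between the libraries numbered 1 and 2 in both genotypes. Across 3221 genes the difference between replicates 1 and 2 correlated between the genotypes with r = 0.127. Listing in both libraries of 1 number alone was found for Usp15 and Usp44. Its share over all genes was not computed. Usp15, a deubiquitinase of growth factor signalling, was listed with 86.8 counts in MST1-deficient replicate 1 and 113 in wild-type replicate 1, and with 0 in both libraries numbered 2. Usp44, a deubiquitinase of the mitotic checkpoint, was listed in both libraries numbered 2 alone, with 8.40 counts in MST1-deficient and 2.0 in wild-type cells. Usp34, a large deubiquitinase of Wnt signalling, had 396 and 249 counts in MST1-deficient replicates 1 and 2, and 277 and 113 in wild-type replicates 1 and 2. Whether the numbers mark a shared day or batch is not given in the labels.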
